A study of Mus musculus with 24 samples.

Results

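The 36 genes of glycolysis, lactate exchange and pyruvate handling were followed in the translatome of oligodendrocytes (OLs) and in total RNA of mouse spinal cord, before and after contusion. They were taken by symbol from a list of glycolytic enzymes, their regulators, the glucose and lactate carriers, and the subunits and kinases of pyruvate dehydrogenase (PDH), by name and not by any level. All 36 of them are among the 21965 genes of the table and all 36 were among the 17167 genes tested. The mice carried the Rpl22-HA (Ribotag) allele and a tamoxifen-induced Cre active in the OL lineage, so that HA-tagged ribosomes are made mainly in mature OLs and, outside the cord, in Schwann cells. All groups, naive ones included, shared this genotype and the tamoxifen treatment, but not the time since tamoxifen. The paper states that naive and dpi 42 tissue was collected on the same day. The dpi 2 and dpi 10 mice were thus younger and sooner after tamoxifen at collection than naive ones. In the dpi 2 and dpi 10 changes against naive, injury cannot be told apart from age and time since tamoxifen. The females were 10-12 weeks old at injury according to the labels. The 4 groups were uninjured (naive) mice and mice at day 2, 10 and 42 after moderate contusion at thoracic level 9 (dpi 2, dpi 10 and dpi 42). In every group 2 mice were combined for a tissue sample, 3 samples in all, from which RNA on HA-tagged ribosomes (OL) and RNA of the whole lysate (total RNA) were sequenced apart, giving 24 libraries.

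Glycolysis splits glucose into pyruvate, which is either reduced to lactate in the cytosol or carried into mitochondria and oxidised by PDH. The kinases Pdk1 to Pdk4 phosphorylate and switch off PDH, and the bifunctional Pfkfb enzymes set the level of the compound that activates phosphofructokinase. Mature OLs are known for glycolytic metabolism and for handing lactate to axons through the monocarboxylate carrier MCT1, encoded by Slc16a1, while glucose enters them mainly by Slc2a1 (GLUT1).

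The libraries held 25840127 to 32987841 counts on genes, and levels are given as CPM (TMM-scaled counts on a common library size). All 8 markers of mature OLs were called enriched in OL over total RNA in each group. Both libraries of the second dpi 2 pool carried 2414 and 2604 counts on 4 Y-linked genes, against 0 to 13 in the other 22 libraries, although all mice are labelled female, and results that rest on this pool are given without it. For 2 dpi 42 libraries title and description disagree on which is OL and which is total RNA. The description, which matches the column names of the table, was followed.

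The OL libraries of a group differed in the level of astrocyte markers, and many members were higher in the same libraries. Whether astrocyte RNA sets the level of these members was not tested. The summed level of 7 astrocyte markers (Gfap, Aqp4, Aldh1l1, Slc1a2, Slc1a3, Gja1 and Fgfr3) was 1504, 1350 and 8836 CPM in the 3 naive OL libraries and 2595, 957 and 7842 CPM at dpi 2. It was 2070, 6340 and 2564 CPM at dpi 10 and 12323, 10339 and 1941 CPM at dpi 42, beside 5001 to 7995 CPM in total RNA. Thus 5 of 12 OL libraries stood at 6340 CPM or more and the other 7 at 2595 CPM or less. Of the 5, those of naive cord, dpi 2 and dpi 42 were above every total RNA library of their group, and the dpi 10 one was below. In all 4 groups, 18 of 36 members (50%) were higher in these 5 libraries than in the others of the same group, against 7.01% of the 17167 genes tested. No member was lower in them in all 4 groups, against 5.24% of genes. The 18 were Gpi1, Pfkl, Pfkm, Pfkp, Aldoa, Aldoc, Tpi1, Pfkfb3, Gapdh, Pgk1, Eno1, Pkm, Ldha, Ldhb, Pdha1, Pygb, Pygm and Gys1. None of the 4 Pdk genes, of the glucose carriers or of the monocarboxylate carriers was among them. Pygm, the muscle-type glycogen phosphorylase that astrocytes also use, was at 52.7, 51.6 and 497 CPM in the naive OL libraries, replicate 3 being the one with 8836 CPM of astrocyte markers. Pfkm, a phosphofructokinase, was likewise highest in replicate 3, at 85.2, 85.3 and 634 CPM. Calls of OL changes against naive that differ without these 5 libraries are given below with their values. At dpi 42 this leaves 1 OL library, whose spread is assumed to be that of the others.

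**Figure D1:**
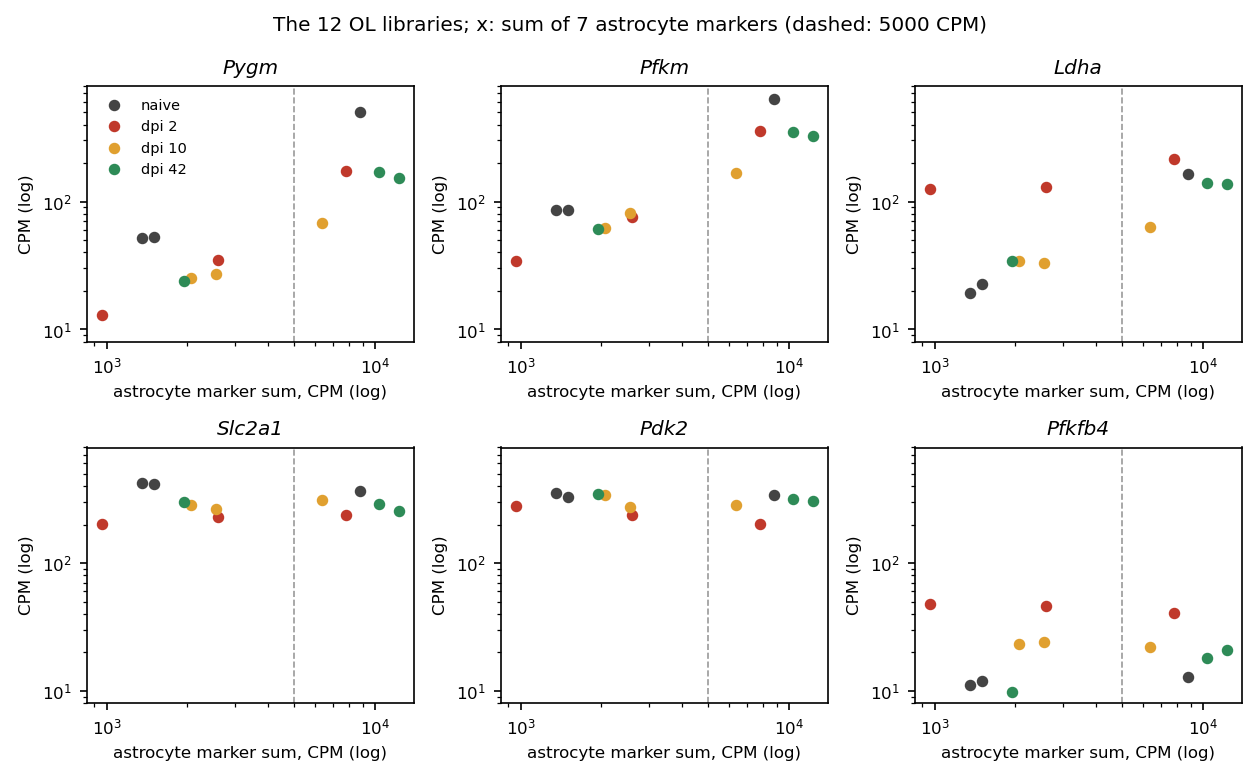
Level of 6 members in CPM (vertical, log axis) against the summed level of 7 astrocyte markers in CPM (horizontal, log axis) in the 12 OL libraries, coloured by group, with a dashed line between the 5 libraries of high level and the others. Pygm and Pfkm are highest to the right of the line in every group, Ldha is at 131 and 126 CPM in the dpi 2 libraries to its left, and Slc2a1, Pdk2 and Pfkfb4 are not among the 18 members that are higher there in all groups.

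In naive cord, all 4 PDH kinases, all 3 monocarboxylate carriers and 1 of 2 glucose carriers were enriched in the OL translatome, and 1 of 7 enzymes of upper and 2 of 5 of lower glycolysis were depleted. OL enrichment is the log2 ratio of OL to total RNA, and a gene was called when its absolute log2 ratio was over 0.5 with an adjusted p (q) under 0.05 in edgeR's quasi-likelihood test. Of the 36 members, 8 were called higher in OL and 8 lower, where 21.7% and 28.6% of all tested genes were. The higher ones were Slc2a1, all 3 monocarboxylate carriers (Slc16a1, Slc16a3 and Slc16a7) and all 4 kinases. The lower ones were Slc2a3, Hk1, Tpi1, Pfkfb2, Pgam1, Pkm, Mpc2 and Pdhb, including 2 carriers. After injury the counts were 6 higher and 10 lower at dpi 2 (20.5% and 27.2% of genes), 8 and 9 at dpi 10 (21.2% and 27.3%) and 6 and 11 at dpi 42 (21.1% and 27% of genes). Pdk2, Pdk3, Pdk4 and Slc16a1 were called higher in all 4 groups, and Slc2a3, Tpi1, Pgam1 and Pkm lower in all 4. The other members called higher after injury were Pfkfb4 and Slc16a7 at dpi 2, Slc2a1, Slc16a7, Gapdh and Mpc1 at dpi 10, and Slc2a1 and Mpc1 at dpi 42. The others called lower were Hk2 and Slc16a3 at all 3 times, Hk1, Pfkfb2 and Pfkfb3 at dpi 2 and dpi 42, Pygb at dpi 2, Pfkp and Gys1 at dpi 10 and dpi 42, and Ldha at dpi 10. Without both libraries of the second dpi 2 pool, 7 members were higher and 8 lower at dpi 2, beside 3302 and 3926 of all genes. Without the 5 libraries of high astrocyte level 8 members were higher and 15 lower in naive cord, 7 and 18 at dpi 2, and 8 and 15 at dpi 10. All genes called higher and lower went from 3733 and 4909 to 4599 and 5244 in naive cord. They went from 3525 and 4670 to 3532 and 5725 at dpi 2, and from 3641 and 4680 to 3904 and 5153 at dpi 10. Pfkm and Pygm were lower in all 4 groups in that fit (-2.23 and -1.54 in naive cord), and not called in any with all libraries. Both the higher and the lower calls depend on the scaling. With an offset for transcript length and GC content 17 members were higher and 2 lower in naive cord, beside 7273 and 2938 of all genes. With library sizes alone 5 were higher and 14 lower, beside 2005 and 7014 of all genes. At dpi 10 the 8 higher calls became 6 with DESeq2 size factors.

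**Figure D2:**
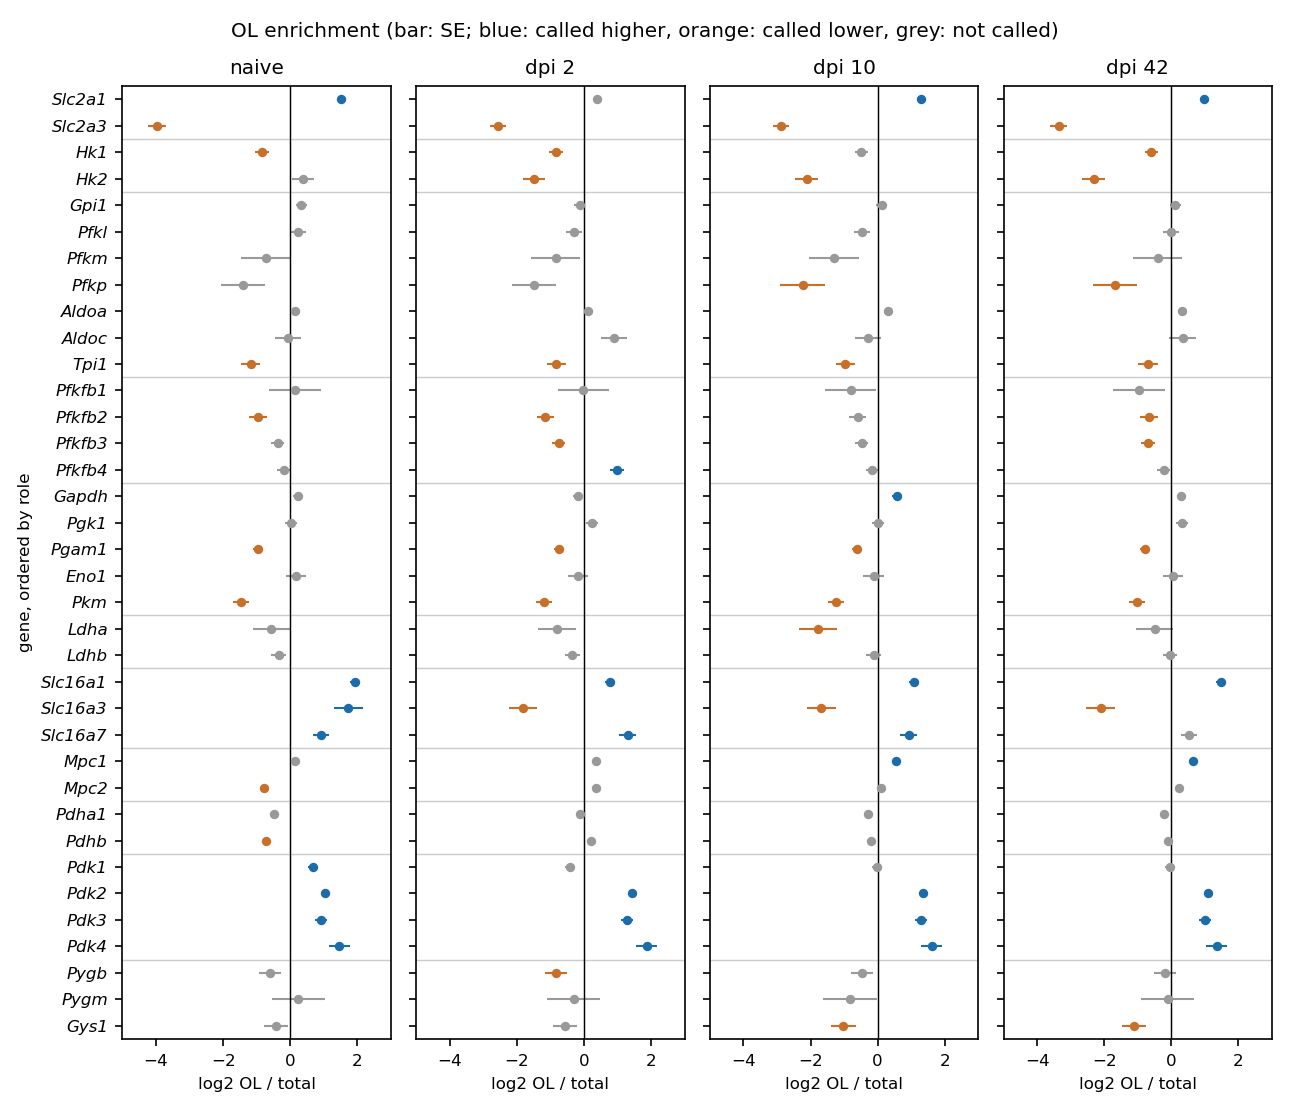
OL enrichment of the 36 members (log2 OL over total RNA, horizontal, with SE bars) in naive cord and at dpi 2, 10 and 42, ordered by role. Slc16a1 and Pdk2 to Pdk4 stay to the right of 0 in all 4 panels, while Hk2 and Slc16a3 move from 0.38 and 1.73 in naive cord to -2.31 and -2.10 at dpi 42.

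In the OL translatome, 14 members were called at dpi 2, 5 at dpi 10 and 4 at dpi 42. At dpi 2 against naive, 3 of 36 members rose (Pfkfb4, Pdk4 and Slc2a3) and 11 fell (Slc2a1, Gpi1, Pfkl, Pfkfb2, Pfkfb3, Gapdh, Ldhb, Slc16a1, Pdk1, Pdk2 and Pygb). These were 8.33% and 30.6% of the members, where 15.9% of all tested genes rose and 16.4% fell. The median change of the members was -0.26 on the log2 scale and that of all genes was 0. Without the third naive OL library, the one of high astrocyte level, 7 members rose and 8 fell, beside 2684 and 3228 of all genes. The median of the members was then above 0, at 0.08, and at 0.02 and 0.15 at dpi 10 and dpi 42. With all libraries these later medians were -0.34 and -0.12. At dpi 10 only Pfkfb4 rose, and Gpi1, Pfkl, Pgk1 and Eno1 fell (8.55% and 5.55% of genes). At dpi 42 Mpc2 rose, and Slc2a1, Slc16a3 and Pdk3 fell (13.7% and 13% of genes). In all, 19 members were called in at least 1 of the 3 OL changes, 4 of them at dpi 2 and at another time, and none at all 3 times. The comparisons share the naive libraries. The dpi 2 calls for Slc2a1, Slc16a1, Pdk1 and Pfkfb4 held under every alternative tried, and the other 10 were each lost under at least 1. With library sizes alone the dpi 2 split was 4 higher and 7 lower, with a total RNA library as the TMM reference it was 1 and 11, and without the 5 libraries of high astrocyte level it was 6 and 12. In the same fits the split of all genes was 3420 and 1939, 2353 and 3449, and 2827 and 3582. Schwann cells also carry the tag. The summed level of 5 Schwann markers in OL was 679 to 1245 CPM in naive cord, 944 to 1513 CPM at dpi 2, 1817 to 2686 CPM at dpi 10 and 1964 to 2290 CPM at dpi 42, Mpzl2 being at 0 in naive OL. Of the 5 markers, 1, 2 and 1 were called higher than naive at these times. The part of Schwann cells in the OL changes was not tested.

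In total RNA the split was 3 higher and 9 lower at dpi 2 (14.3% and 17% of genes), 4 and 10 at dpi 10 (12.4% and 13.3%) and 2 and 1 at dpi 42 (9.15% and 7.76%). Hk2 and Slc16a3 rose at all 3 times, Pfkfb4 at dpi 2 and dpi 10, and Slc16a1 at dpi 10. Slc2a3, Ldhb, Mpc2, Pdhb, Pdk2 and Pdk3 fell at both dpi 2 and dpi 10, and Pdk3 also at dpi 42. Aldoc, Pfkfb2 and Pygb fell at dpi 2 alone, and Hk1, Pgk1, Pkm and Pdha1 at dpi 10 alone. Several of these calls rest on single libraries. Those of Aldoc and Pygb at dpi 2 were lost without any 1 of the naive or dpi 2 total RNA libraries (-1.20 to -1.06 for Aldoc and -0.98 to -0.85 for Pygb). That of Pfkfb2 (-0.74 ± 0.25, q = 0.0256) was lost without any 1 of the first 2 naive or the last 2 dpi 2 libraries (-0.76 to -0.60). At dpi 10 that of Pkm (-0.69 ± 0.23, q = 0.0278) was lost without any 1 of these libraries but the first naive one (-0.70 to -0.66), and that of Hk1 (-0.63 ± 0.20, q = 0.0174) without the third naive one (-0.57). Those of Pdk2 (-0.51) and Pdha1 (-0.55) lie near the fold threshold, and Pdk2 passed to -0.50, -0.49 and -0.48 without the second naive, the second dpi 10 and the third dpi 10 library, and Pdha1 to -0.50 without the second dpi 10 one. With library sizes alone the split was 5 higher and 2 lower at dpi 2, 4 and 4 at dpi 10, and 4 and 0 at dpi 42. That of all genes was then 3267 and 1678, 2643 and 1208, and 1838 and 687. The difference of the 2 changes (OL minus total, called differential OL enrichment and fitted with the tissue pool as a term) was called for 4 members in the higher and 5 in the lower direction at dpi 2 (6.98% and 5.44% of genes). It was called for 2 and 4 at dpi 10 (4.17% and 2.94%) and for 2 and 3 at dpi 42 (4.07% and 3.34%). Without the pools of high astrocyte level these were 10 and 5 at dpi 2 and 7 and 4 at dpi 10, Tpi1 and Pkm being among those added at both times (0.69 each at dpi 2, and 0.72 and 0.67 at dpi 10). All genes called higher and lower went from 1199 and 934 to 1838 and 983 at dpi 2. At dpi 10 they went from 716 and 504 to 1085 and 530. At dpi 42, where this fit leaves 1 pool, the calls of Hk2 (-1.85) and Pdhb (0.65) were lost. Since bulk RNA was measured, fewer cells of a type and less RNA per cell cannot be told apart in any of these values.

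**Figure D3:**
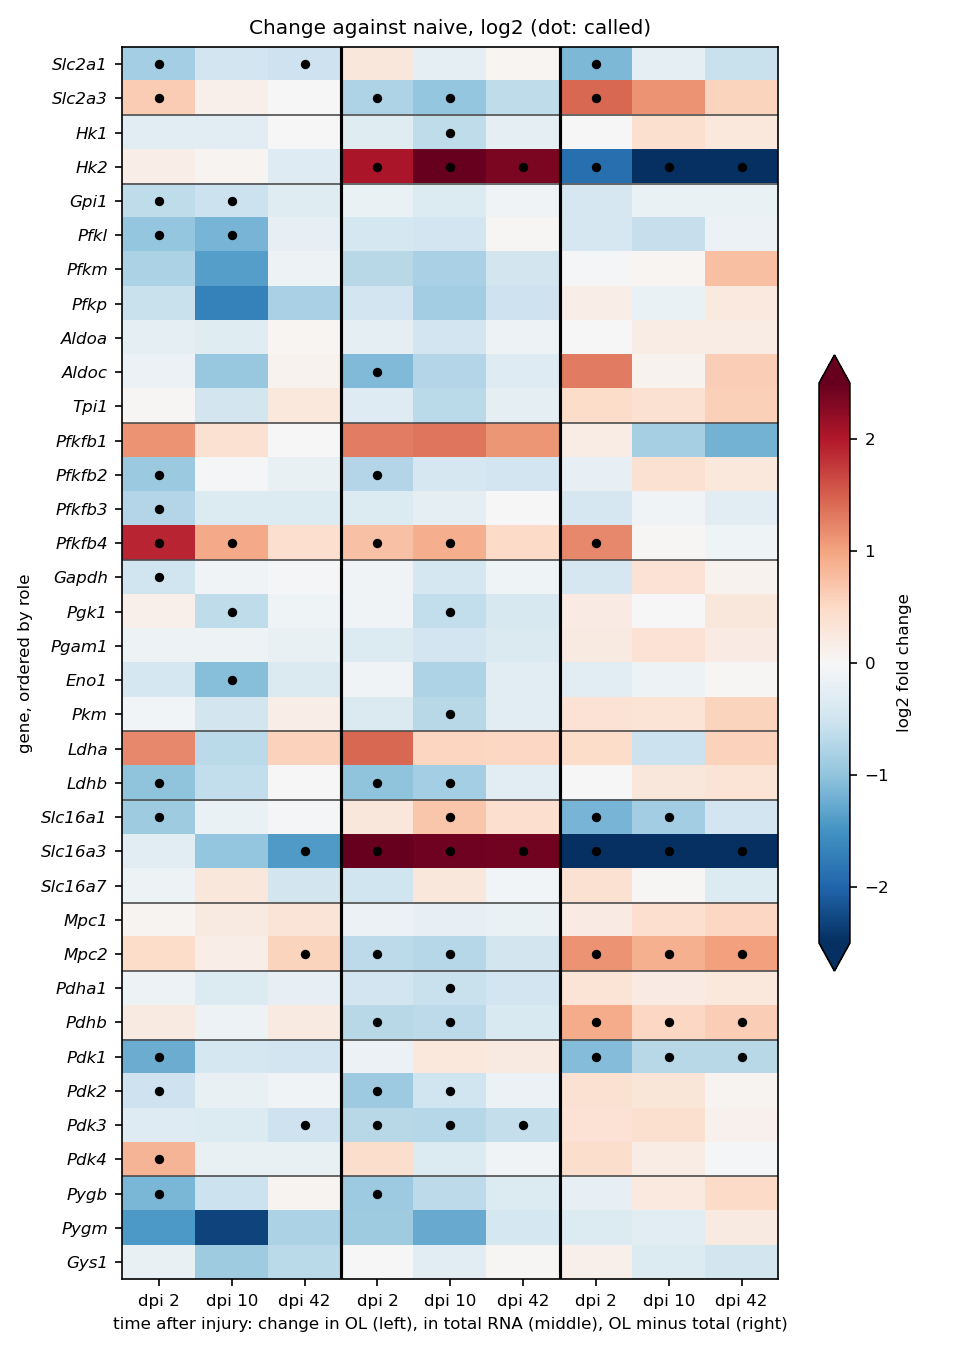
Log2 change against naive of each member (rows, by role) at dpi 2, 10 and 42 in OL (left), in total RNA (middle), and OL minus total (right), on a colour scale from -2.5 to 2.5 where red is higher, with a dot for a call. Most dots in the OL columns are at dpi 2, and Hk2 and Slc16a3 are red in total RNA and blue at the right at all 3 times.

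The glucose carriers lay at opposite ends. Slc2a1, the GLUT1 of OLs and of brain capillaries, was at 415, 421 and 368 CPM in naive OL and at 138, 134 and 145 CPM in total RNA, an enrichment of 1.53 ± 0.11 (log2, SE, q = 6.61e-11). Its naive OL level was 114 ± 8.22 CPM per kilobase of exon (SD, n = 3). At dpi 2 the OL libraries held 228, 203 and 237 CPM, all below the 3 naive ones, a log2 change of -0.85 ± 0.10 (q = 1.48e-06). Total RNA at dpi 2 held 145, 189 and 174 CPM (0.29 ± 0.10, not called), so that OL and total RNA differed by -1.13 ± 0.17 (q = 0.000971). The OL level was 283, 313 and 265 CPM at dpi 10 (-0.48 ± 0.10, short of the fold limit) and 255, 287 and 300 CPM at dpi 42. The dpi 42 fall of -0.52 ± 0.10 (q = 0.000588) was just past the fold limit, and it was -0.49 without the first dpi 42 OL library and -0.38 with library sizes alone. Slc2a3, the neuronal carrier GLUT3, stood at 5.38, 3.72 and 6.81 CPM in naive OL and at 80.4, 80.4 and 88.6 CPM in total RNA (-3.97 ± 0.26, q = 3.27e-11). Its total RNA level fell by 0.77 ± 0.23 at dpi 2 (q = 0.0106) and by 0.96 ± 0.23 at dpi 10 (q = 0.00262). The summed level of 8 neuron markers in total RNA went from 9058 to 9635 CPM in naive cord to 3549 to 4747 CPM at dpi 2 beside it, and the part of neurons in this fall was not tested. In OL, Slc2a3 was at 7.29, 8.26 and 9.33 CPM at dpi 2 (0.64 ± 0.24, q = 0.0411), a call that was lost on leaving out any 1 of the 6 libraries compared but the third naive one.

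Hexokinases trap glucose in the cell. Hk1, the form of neural cells, was lower in OL than in total RNA in naive cord (-0.84 ± 0.20, q = 0.000965) and was not called in any OL change. Its naive enrichment was 0.10 and not called with the length and GC offset. Hk2, an inducible form, was low in OL throughout, with 6.05, 3.77 and 7.8 CPM in naive cord and 2.9 to 8.14 CPM in the 9 libraries after injury. Total RNA held 5.77, 3.55 and 4.25 CPM in naive cord, 17.8, 20.4 and 17.8 CPM at dpi 2, 25, 32.7 and 22.7 CPM at dpi 10 and 25.6, 19.8 and 24.2 CPM at dpi 42. All 9 injured total libraries were thus above all naive ones, with log2 changes of 2.05 ± 0.34, 2.57 ± 0.34 and 2.36 ± 0.34 (q = 5.16e-05, 6.84e-06 and 3.32e-05). The difference OL minus total was -1.89 ± 0.41, -2.497 ± 0.41 and -2.74 ± 0.41 (q = 0.00864, 0.00323 and 0.0023). The dpi 42 difference was not called without the pools of high astrocyte level (-1.85, q = 0.0737).

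The same contrast was seen for Slc16a3, which encodes MCT4, a lactate exporter of strongly glycolytic cells. Total RNA held 2.62, 1.71 and 3.87 CPM in naive cord, 27, 27.7 and 24.5 CPM at dpi 2, 13, 15.1 and 16.4 CPM at dpi 10 and 19.3, 10.1 and 14.5 CPM at dpi 42. The log2 changes were 3.27 ± 0.45, 2.44 ± 0.44 and 2.42 ± 0.44 (q = 7.16e-06, 0.000181 and 0.000371), with no overlap of injured and naive libraries. In OL it stood at 5.92, 6.73 and 14.6 CPM in naive cord and at 7.22, 11.1 and 4.09 CPM at dpi 2, which overlap. By dpi 42 it was at 1.57, 5.56 and 3.13 CPM, a change of -1.41 ± 0.43 (q = 0.0141). This change was not called without the third naive library (-0.94) or the first dpi 42 library (-1.11), nor without the 5 libraries of high astrocyte level (-1.03). OL minus total was -3.62 ± 0.39, -3.37 ± 0.39 and -3.91 ± 0.40 at dpi 2, 10 and 42 (q = 0.000134, 0.000387 and 0.000172), and these 3 calls held under every alternative. Slc16a3 was thus the one member whose enrichment was called higher in naive cord (1.73 ± 0.43) and lower at each time after injury.

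Beside these rises in total RNA, the summed level of 8 microglia and macrophage markers went from 181 to 215 CPM in naive cord to 1286 to 1522 CPM at dpi 2, 3482 to 4726 CPM at dpi 10 and 1991 to 3018 CPM at dpi 42. The 5 fibroblast markers went from 57.7 to 78.9 CPM to 397 to 841, 2083 to 2345 and 486 to 795 CPM. None of these markers was at 0 in OL, where the myeloid sum was 10.4 to 16.5 CPM in naive cord and 70.8 to 251 CPM after injury. The part of these cells in the levels of Hk2 and Slc16a3 was not tested.

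**Figure D4:**
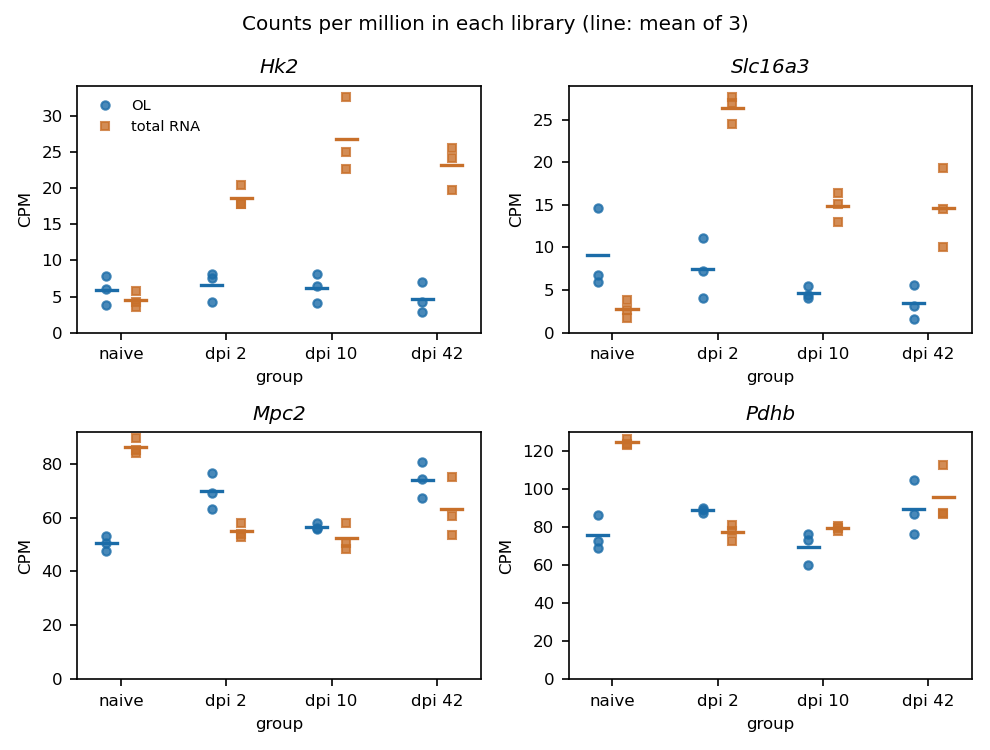
CPM of Hk2, Slc16a3, Mpc2 and Pdhb in each OL (circles) and total RNA (squares) library of the 4 groups, with lines at the means of 3. Hk2 and Slc16a3 rise in total RNA while OL stays below 15 CPM, and Mpc2 and Pdhb were called lower in total RNA at dpi 2 and dpi 10 and not in OL.

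Among the enzymes of upper glycolysis, the liver-type phosphofructokinase Pfkl changed most clearly in OL. Its level was 87.4, 92.9 and 212 CPM in naive OL, 65.7, 53.5 and 81.6 CPM at dpi 2 and 50.8, 65.2 and 58.9 CPM at dpi 10. No library of dpi 2 or dpi 10 reached a naive one, and the log2 changes were -0.97 ± 0.24 (q = 0.00297) and -1.17 ± 0.24 (q = 0.00177). The third naive library sets part of the size. Without it the dpi 2 change was -0.49, short of the fold limit, and the dpi 10 call held. Pfkl was back at 134, 120 and 86.6 CPM at dpi 42, and its rise from dpi 10 (0.96 ± 0.24, q = 0.0205) was the only change called between these times. The muscle and platelet types, Pfkm and Pfkp, were not called in any change with all libraries, and their naive OL replicates spread from 85.2 to 634 CPM and from 31.3 to 236 CPM. Gpi1, which turns glucose 6-phosphate into fructose 6-phosphate, was at 438, 489 and 800 CPM in naive OL, 326, 338 and 455 CPM at dpi 2 and 405, 412 and 367 CPM at dpi 10. Its changes of -0.63 and -0.55 (SE 0.16 each, q = 0.00404 and 0.0227) were -0.38 and -0.24 without the third naive library and were then not called. The dpi 10 call was also lost without the third dpi 10 library. The aldolase Aldoa, at 1364, 1507 and 1948 CPM in naive OL one of the most abundant members, was not called in any comparison.

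Aldoc, the aldolase of astrocytes, fell in total RNA at dpi 2, from 1983, 1965 and 2059 CPM to 878, 868 and 1038 CPM (-1.11 ± 0.40, q = 0.0323), a call lost on leaving out any 1 of the 6 libraries. In OL it was at 1598, 1588 and 1992 CPM at dpi 2 and at 1000, 934 and 3782 CPM in naive cord. Without the 5 libraries of high astrocyte level the OL change was 0.66 ± 0.12 (q = 9.97e-05). Tpi1, the triose phosphate isomerase, was not called in any change.

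Of the 4 Pfkfb enzymes, 1 rose and 2 fell in OL at dpi 2. Pfkfb4, whose product steers phosphofructokinase, rose in OL from 12.1, 11.2 and 12.8 CPM to 46.3, 47.4 and 40.7 CPM at dpi 2. Every dpi 2 library was thus above every naive one, and the log2 change of 1.90 ± 0.21 (q = 3.27e-07) was the largest rise of any member in OL. Levels were 23.2, 22 and 24 CPM at dpi 10 (0.94 ± 0.20 over naive, q = 0.00242, and -0.96 ± 0.20 against dpi 2, q = 0.00134) and 20.7, 18 and 9.78 CPM at dpi 42, where 1 library was below the naive ones and no call was made. Total RNA rose less at dpi 2, from 13.3, 14.2 and 13.5 CPM to 20.2, 29.6 and 18 CPM (0.73 ± 0.20, q = 0.00663), and that call was lost without the second dpi 2 pool (0.48). The change in OL exceeded that in total RNA by 1.20 ± 0.29 at dpi 2 (q = 0.0155), a call lost without the second naive pool (1.12), the first (1.11) or the third dpi 2 pool (0.92). At dpi 10 the difference was 0.03 ± 0.29 and not called. Pfkfb3 and Pfkfb2 went the other way at dpi 2. Pfkfb3, a form with high kinase activity, went from 60, 64.8 and 97.2 CPM to 37.5, 31.4 and 65.3 CPM in OL (-0.73 ± 0.20, q = 0.00704), the highest dpi 2 library lying within the naive range. Without both libraries of the second dpi 2 pool the change was -0.53 and not called. Pfkfb2 went from 6.56, 7.87 and 8.76 CPM to 4.8, 2.63 and 4.74 CPM in OL (-0.93 ± 0.26, q = 0.00719), and was back at 7.88, 6.85 and 7.65 CPM at dpi 10 (0.88 ± 0.26 against dpi 2, q = 0.018, lost without the second dpi 2 library). Pfkfb1 lay between 0.274 and 1.46 CPM in OL and was not called.

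In lower glycolysis few members passed the test. Gapdh was at 806, 878 and 1197 CPM in naive OL and at 633, 537 and 860 CPM at dpi 2, a fall of 0.50 on the log2 scale (SE 0.14, q = 0.00806) right at the fold limit. It was -0.38 without the third naive library, -0.42 without the second dpi 2 library and -0.34 with library sizes alone, none of them called. Pgk1, the first enzyme of the pathway to yield ATP, went from 105, 113 and 154 CPM in naive OL to 81.1, 85 and 73.5 CPM at dpi 10 (-0.63 ± 0.18, q = 0.0194, with no overlap). Total RNA fell too, from 118, 120 and 127 CPM to 77.7, 79.9 and 81.9 CPM (-0.61 ± 0.18, q = 0.0143), and OL minus total was -0.01 ± 0.19. The OL call was lost without the third naive library (-0.45) and without the third dpi 10 library (-0.58, q = 0.0674). Eno1, an enolase whose reads may be shared with the near copy Eno1b, was at 211, 221 and 574 CPM in naive OL and at 152, 177 and 151 CPM at dpi 10 (-1.07 ± 0.31, q = 0.0183). All dpi 10 libraries were below the naive ones, but the call was lost without the third naive library (-0.43), and without the first or the third dpi 10 library (-1.03 each). Pkm, the pyruvate kinase, was depleted in OL in all groups (379, 373 and 856 CPM against 1386, 1539 and 1523 CPM in naive total RNA, -1.47 ± 0.24) and was not called in an OL change. Pgam1, the mutase, was likewise depleted in all 4 groups and not called in a change.

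Of the lactate dehydrogenases, Ldhb was called at dpi 2 with all libraries and Ldha was not. Ldhb, the form that favours lactate use, fell from 376, 379 and 646 CPM to 203, 173 and 323 CPM in OL (-1.003 ± 0.22, q = 0.000955), all below the naive libraries. Total RNA fell too, from 575, 593 and 612 CPM to 279, 268 and 343 CPM (-1.001 ± 0.22, q = 0.000986). The OL level was back at 540, 532 and 342 CPM at dpi 42. Ldha, the form that favours lactate production, was at 22.9, 19.4 and 165 CPM in naive OL and at 131, 126 and 216 CPM at dpi 2, where 1 naive library with high astrocyte markers lay within the dpi 2 range and the change of 1.19 ± 0.56 was not called (q = 0.105). Without the 5 libraries of high astrocyte level, 2 naive libraries at 22.9 and 19.4 CPM stood against 2 dpi 2 libraries at 131 and 126 CPM, a change of 2.54 ± 0.15 (q = 8.69e-11). With the astrocyte sum as a covariate it was 1.83 (q = 1.09e-05). Both of these fits were added after the values were seen, and a limit of the covariate is given below. Ldha was at 34, 62.9 and 33 CPM at dpi 10, all below dpi 2 (-1.87 ± 0.58, q = 0.023, lost without the third dpi 2 library or the first or the third dpi 10 library). In total RNA it was at 90.2, 95.3 and 120 CPM in naive cord and at 270, 315 and 242 CPM at dpi 2 (1.44 ± 0.57, q = 0.0518, not called).

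Slc16a1, which encodes the lactate carrier MCT1, was the member most enriched in naive OL, at 299, 332 and 277 CPM against 89.2, 77.1 and 71.3 CPM in total RNA (1.93 ± 0.14, q = 1.79e-10). At dpi 2 the OL libraries were at 165, 135 and 190 CPM, all below naive (-0.89 ± 0.14, q = 2.72e-05). They were at 262, 277 and 270 CPM at dpi 10, a rise of 0.72 ± 0.14 over dpi 2 (q = 0.000586) to levels that were not called different from naive (-0.17 ± 0.14), and at 358, 282 and 239 CPM at dpi 42. Total RNA was at 79.2 ± 9.12 CPM (SD, n = 3) in naive cord, at 95.8 ± 14.4 CPM at dpi 2, which was not called, and at 128 ± 1.47 CPM at dpi 10, a rise of 0.69 ± 0.14 on the log2 scale (q = 0.00052). OL minus total was therefore -1.17 ± 0.18 at dpi 2 (q = 0.00125) and -0.86 ± 0.18 at dpi 10 (q = 0.0125, lost without the second naive pool at -0.78). Slc16a7, which encodes the high-affinity carrier MCT2, was at 34, 32.1 and 21.5 CPM in naive OL and at 18.7, 15.1 and 12.7 CPM in total RNA (0.91 ± 0.24, q = 0.00303), and it was not called in any change. Library sizes alone moved the median enrichment of all genes in naive cord by -0.509 and left 5 of the members called higher, against 8. An enrichment of this size thus depends on the scaling.

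**Figure D5:**
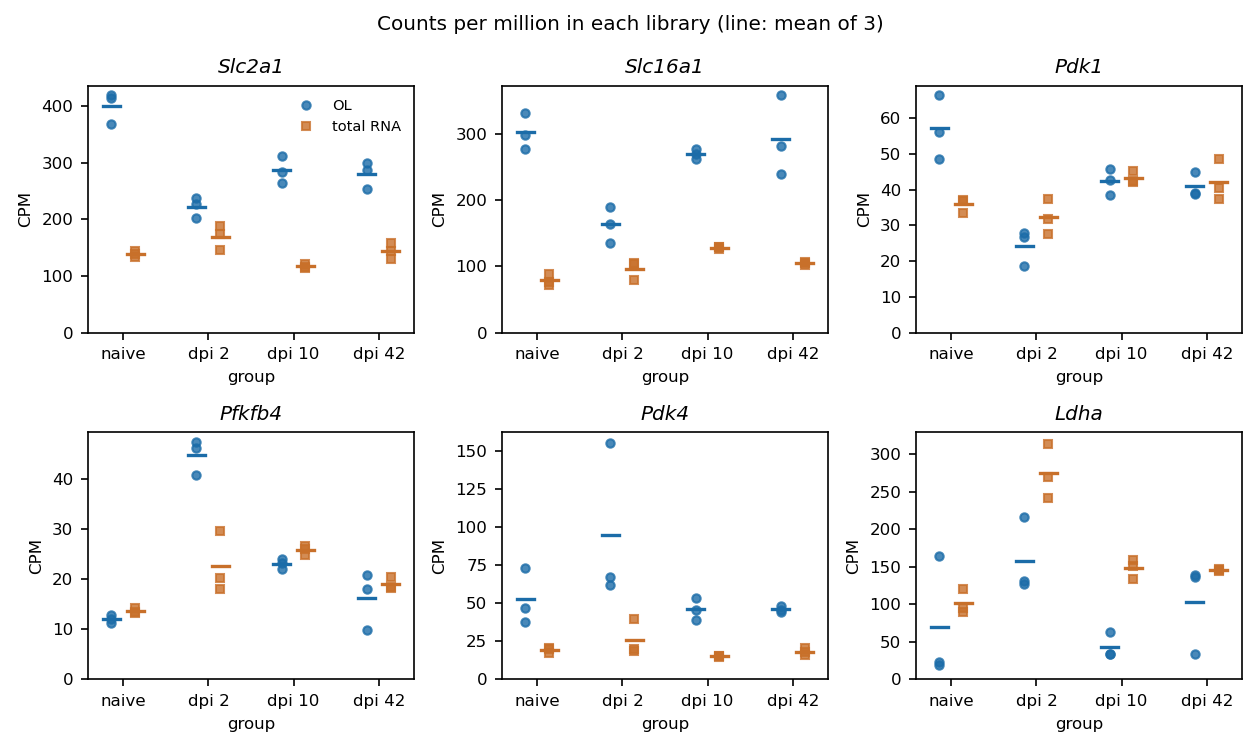
CPM of 6 members in each OL (circles) and total RNA (squares) library of the 4 groups, with lines at the means of 3. Slc2a1, Slc16a1 and Pdk1 are lowest in OL at dpi 2, Pfkfb4 is highest there, 1 dpi 2 OL library stands out for Pdk4 at 155 CPM, and Ldha has 2 of 3 naive OL libraries below 25 CPM.

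Promoter sequence is shown for 4 members with changes in OL at dpi 2, Slc2a1, Slc16a1 and Pdk1 (lower) and Ldha (higher without the libraries of high astrocyte level). The bases lie before the RefSeq start site on GRCm38.p6, plus strand, and that of Slc2a1 stops before its first GENCODE M21 exon. They are chr4:119108495-119108710, chr3:104638414-104638663, chr2:71872974-71873223 and chr7:46845554-46845803, 5′ to 3′, with capitals for the letters ACGTG or GCGTG on either strand.
Slc2a1: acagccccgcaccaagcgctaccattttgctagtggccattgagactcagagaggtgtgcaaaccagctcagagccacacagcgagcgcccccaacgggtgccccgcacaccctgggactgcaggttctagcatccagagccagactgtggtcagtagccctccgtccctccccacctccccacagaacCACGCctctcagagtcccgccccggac
Slc16a1: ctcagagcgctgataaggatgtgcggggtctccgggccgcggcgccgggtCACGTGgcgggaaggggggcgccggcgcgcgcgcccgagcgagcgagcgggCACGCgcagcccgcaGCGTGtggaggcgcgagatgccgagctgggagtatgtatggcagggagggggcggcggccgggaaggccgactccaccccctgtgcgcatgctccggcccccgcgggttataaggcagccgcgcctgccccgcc
Pdk1: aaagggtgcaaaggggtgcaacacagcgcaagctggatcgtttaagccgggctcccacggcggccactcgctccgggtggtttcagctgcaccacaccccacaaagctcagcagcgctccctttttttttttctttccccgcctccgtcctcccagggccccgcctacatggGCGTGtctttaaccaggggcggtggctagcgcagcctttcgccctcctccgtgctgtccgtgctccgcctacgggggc
Ldha: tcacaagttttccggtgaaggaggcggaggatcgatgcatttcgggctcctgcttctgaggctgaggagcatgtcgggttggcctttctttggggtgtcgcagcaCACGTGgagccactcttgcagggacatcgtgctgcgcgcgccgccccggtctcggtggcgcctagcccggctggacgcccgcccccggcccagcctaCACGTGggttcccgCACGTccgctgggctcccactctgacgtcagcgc

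ACGTG and GCGTG are the core letters known from hypoxia response elements, and CACGTG, the E-box letters, contains ACGTG on both strands. In windows of 250 bases, ACGTG was found on either strand in 21 of 54 promoters of the members (38.9%), from 34 genes with a RefSeq entry, and in 16.6% of all 32851 promoters. GCGTG was found in 30 of 54 (55.6%) against 28.2%, and CACGTG in 6 of 54 (11.1%) against 6.02%. The Ldha promoter shown has CACGTG at 2 places and ACGTG at 5, of which 4 are within CACGTG, and the Slc16a1 promoter has CACGTG once. Promoters of 1 gene overlap in part, and a match is a description of letters only.

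Pyruvate enters mitochondria through the carrier formed by Mpc1 and Mpc2. Mpc2 was lower in OL than in total RNA in naive cord (50.7, 47.5 and 53.1 CPM against 89.5, 84 and 85 CPM, -0.77 ± 0.11, q = 4.3e-06). This enrichment depends on the scaling and was 0.10, not called, with the length and GC offset. After injury Mpc2 fell in total RNA, to 52.9, 54 and 58 CPM at dpi 2 and 50.7, 48.4 and 58 CPM at dpi 10 (-0.65 ± 0.11 and -0.72 ± 0.11, q = 8.94e-05 and 4.24e-05). In OL it was instead at 63.3, 76.6 and 69.3 CPM at dpi 2, all above naive (0.47 ± 0.11, short of the fold limit), and at 67.3, 74.5 and 80.5 CPM at dpi 42 (0.56 ± 0.11, q = 0.000639). The dpi 42 value was 0.46 without the second naive library and 0.41 without the third dpi 42 library, both under the fold limit. OL minus total was 1.12 ± 0.17, 0.89 ± 0.17 and 1.02 ± 0.17 at dpi 2, 10 and 42 (q = 0.000999, 0.00693 and 0.00352), and these 3 calls held under every alternative. Mpc1 was not called in any change (0.07, 0.22 and 0.33 in OL).

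Of the 2 PDH subunits, Pdhb was called in the difference between OL and total RNA and Pdha1 was not. Pdhb, the beta subunit of the first enzyme of PDH, was at 72.7, 69 and 86.4 CPM in naive OL and at 127, 124 and 124 CPM in total RNA (-0.71 ± 0.12, q = 3.26e-05). This enrichment was 0.043 and not called with the length and GC offset. Total RNA fell to 77.9, 81.2 and 73 CPM at dpi 2 (-0.69 ± 0.12, q = 0.000114), while OL stayed at 87.4, 89.1 and 90.1 CPM (0.22 ± 0.12, not called). The difference was 0.92 ± 0.13 at dpi 2 (q = 0.000842), 0.53 ± 0.13 at dpi 10 (q = 0.033) and 0.62 ± 0.13 at dpi 42 (q = 0.015). The dpi 2 value held under every alternative. Both later calls were lost with a total RNA reference for TMM and with the length and GC offset. The dpi 10 call was also lost with library sizes alone and without the tissue pool as a term (q = 0.0664). Leaving out the first or second pool of naive cord or of dpi 10 lost it too. The dpi 42 call was also lost with only the groups compared, and without the first or second naive pool or 1 dpi 42 pool. Without the pools of high astrocyte level, which leaves 1 pool at dpi 42, the dpi 42 difference was 0.65. Pdha1, the alpha subunit, fell in total RNA at dpi 10 (-0.55 ± 0.11, q = 0.000794, -0.50 and not called without the second dpi 10 library) and was not called in OL. The neuron markers were lower in total RNA beside these genes (3549 to 4747 CPM at dpi 2 and 3893 to 4272 CPM at dpi 10, against 9058 to 9635 CPM), and their part was not tested.

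The PDH kinases were all enriched in naive OL, Pdk4 by 1.46 ± 0.31, Pdk2 by 1.05 ± 0.11, Pdk3 by 0.92 ± 0.18 and Pdk1 by 0.67 ± 0.15 (log2, q = 0.000383, 2.97e-08, 0.000208 and 0.000702). With library sizes alone, which moved the median enrichment of all genes by -0.5 to -0.575, Pdk1 and Pdk3 were at 0.16 and 0.40 and not called. Pdk1, a kinase known as a target of the hypoxia pathway, was not called enriched after injury. Its OL level went from 66.6, 56.3 and 48.7 CPM to 26.7, 27.8 and 18.5 CPM at dpi 2, with no overlap (-1.23 ± 0.15, q = 2.05e-06). This was the largest fall called among members in OL at dpi 2. At dpi 10 and dpi 42 Pdk1 was at 38.6, 45.9 and 42.8 CPM and at 38.9, 44.8 and 39.1 CPM, above dpi 2 (0.80 ± 0.15 at dpi 10, q = 0.000595) and below all naive libraries, although these changes of -0.43 and -0.48 were short of the fold limit. Total RNA stayed between 27.7 and 48.7 CPM in all 12 libraries. The difference OL minus total was -1.08 ± 0.18, -0.69 ± 0.18 and -0.70 ± 0.18 (q = 0.0022, 0.0391 and 0.0372). The dpi 2 call held under every alternative, and each of the later calls was lost in 5 of 6 fits that left out 1 pool of the groups compared.

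Pdk2 fell in OL at dpi 2 by 0.51 (SE 0.11, q = 0.000571), from 331, 355 and 338 CPM to 237, 277 and 203 CPM, and by 0.90 (SE 0.11, q = 1.2e-06) in total RNA. All dpi 2 libraries lay below the naive ones in both kinds of RNA, and the OL value was -0.47 without the third dpi 2 library. Pdk3 fell in total RNA at all 3 times (-0.69, -0.71 and -0.60, SE 0.18 each, q = 0.00498, 0.00492 and 0.0215). In OL it fell at dpi 42, from 99.2, 89.6 and 69.6 CPM to 58.7, 65.3 and 57.4 CPM (-0.51 ± 0.18, q = 0.0362), a call lost without the first (-0.45) or second (-0.54) naive library or the first dpi 42 library (-0.53). The dpi 42 call in total RNA was also lost without the first or second naive library or the first or the third dpi 42 library. Pdk4, the kinase induced by fasting and glucocorticoids, was at 46.5, 37.4 and 73.2 CPM in naive OL and at 67.1, 155 and 61.6 CPM at dpi 2 (0.85 ± 0.30, q = 0.0314). The groups overlap, and 1 library sets the value. The second dpi 2 pool, the one with Y-linked counts, was also highest in total RNA at 39.5 CPM, beside 19.5 and 18.3 CPM in the other two, and without that OL library the change was 0.24 (q = 0.539). The call was also lost without the first (0.71) or second (0.59) naive library. The fall from dpi 2 to dpi 10 (-1.05 ± 0.31, q = 0.0165) likewise was -0.44 without that library, and it was lost without the second (-0.97) or the third (-0.88) dpi 10 library.

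Of the glycogen enzymes, the brain-type phosphorylase Pygb fell at dpi 2 in OL, from 191, 177 and 444 CPM to 105, 73.2 and 189 CPM (-1.14 ± 0.33, q = 0.00837). The highest dpi 2 library lay within the naive range, and the change was -0.65 and not called without the third naive library. Without the 5 libraries of high astrocyte level it was -1.10 ± 0.14 (q = 2.19e-06), and without both libraries of the second dpi 2 pool it was -0.88 and not called. It fell in total RNA too, from 401, 425 and 408 CPM to 221, 197 and 236 CPM (-0.92 ± 0.33, q = 0.031, lost on leaving out any 1 of the 6 libraries). Pygm was not called in any change with all libraries (-1.44 ± 0.81 in OL at dpi 2). Without the 5 libraries it was -1.18 at dpi 2, -0.98 at dpi 10 and -1.13 at dpi 42 (q = 0.00215, 0.0148 and 0.0275). Gys1, the glycogen synthase, was not called in any change with all libraries.

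Both fits that deal with the astrocyte level, added after the values were seen, moved further calls of OL changes against naive. Without the 5 libraries, Pfkm fell at dpi 2 (-0.68) and Gys1 rose (0.53). In the same fit Pdk1 fell at dpi 10 and dpi 42 (-0.59 and -0.67), Slc2a1 fell at dpi 10 (-0.61), Pfkp fell at dpi 42 (-0.67) and Ldha rose at dpi 10 and dpi 42 (0.66 and 0.68). The calls lost in it were Pdk2 at dpi 2 (-0.48), Gpi1 and Pgk1 at dpi 10 (-0.26 and -0.49), and Slc2a1 and Slc16a3 at dpi 42 (-0.50 and -1.03). The astrocyte sum can itself move with injury. Mean Gfap in total RNA was 1572 CPM in naive cord and 4560, 4417 and 4452 CPM at dpi 2, 10 and 42. Slc1a2, Slc1a3, Gja1 and Fgfr3 were lower than naive there at all 3 times, and Aqp4 and Aldh1l1 went both ways. How far the covariate takes up injury itself was not tested. With the astrocyte sum as a covariate, Pfkm and Pygm fell at all 3 times (-0.80, -1.14 and -1.12 for Pfkm, and -1.40, -1.96 and -1.84 for Pygm). Pfkp and Gys1 fell at dpi 10 and dpi 42 in that fit (-1.39 and -1.50 for Pfkp, and -0.81 and -0.96 for Gys1). Aldoc, Ldhb and Pygb fell at dpi 10 (-0.86, -0.64 and -0.55), and Pfkfb3 and Eno1 at dpi 42 (-0.59 and -0.73), while the call for Pdk3 at dpi 42 was lost (-0.33). The fits differ for Gys1 at dpi 2, which the covariate fit did not call, and for Ldha at dpi 10, which was at -0.35 and not called with the covariate.

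Between the later times, 3 members were higher at dpi 10 than at dpi 2 in OL (Slc16a1, Pdk1 and Pfkfb2) and 4 were lower (Pfkfb4, Pgk1, Ldha and Pdk4), where 9.55% and 7.92% of genes were. Pgk1 was at 123, 110 and 171 CPM at dpi 2, within reach of the naive level (0.12 ± 0.18). The call for Pgk1 (-0.75 ± 0.18, q = 0.00472) was lost without the third dpi 2 library (-0.49). From dpi 10 to dpi 42 only Pfkl was called, in the higher direction (1.97% of genes higher and 3.04% lower). That call was lost without the first or the third dpi 10 library or the first or second dpi 42 library (0.78 to 0.92).

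Of 67 further genes of these pathways, 64 were tested. In OL 6 rose and 13 fell at dpi 2 (15.9% and 16.4% of all genes), 2 and 7 at dpi 10 (8.55% and 5.55%), and 7 and 9 at dpi 42 (13.7% and 13%). In total RNA 5 rose and 18 fell at dpi 2 (14.3% and 17% of all genes), 6 and 18 at dpi 10 (12.4% and 13.3%), and 3 and 13 at dpi 42 (9.15% and 7.76%). Gpd1, the cytosolic glycerol 3-phosphate dehydrogenase, rose by 2.595 ± 0.15 in OL and 1.70 ± 0.14 in total RNA at dpi 2 (q = 5.72e-11 and 1.51e-08). Pcx, pyruvate carboxylase, fell in OL by 1.59 ± 0.13 at dpi 2, 0.98 ± 0.13 at dpi 10 and 0.78 ± 0.13 at dpi 42 (q = 6.78e-09, 1.39e-05 and 7.94e-05). Of the other parts of PDH, Dlat, Dld, Pdhx and Pdp1 fell in total RNA at all 3 times, by 0.52 to 1.15 on the log2 scale, and none was called in OL. The OL changes at dpi 2 were -0.09 for Dlat, 0.02 for Dld, -0.22 for Pdhx and -0.35 for Pdp1. Differential OL enrichment at dpi 2 was called for Dlat (0.65 ± 0.19), Dld (0.69 ± 0.16) and Pdp1 (0.81 ± 0.21, q = 0.0366, 0.0133 and 0.0213), the same direction as for Mpc2 and Pdhb. Pdpr, a regulator of the PDH phosphatase, fell in OL by 2.38 ± 0.27, 1.36 ± 0.26 and 2.37 ± 0.27 at dpi 2, 10 and 42 (q = 5.73e-07, 0.000785 and 1.8e-06). Txnip, which restrains glucose uptake, rose in total RNA by 1.495, 1.88 and 1.84 and fell in OL by 0.72 at dpi 2 (SE 0.28 each, q = 0.000227, 3.07e-05, 7.5e-05 and 0.0448).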

How the data were processed

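Spinal cord RNA bound to HA-tagged OL ribosomes and total RNA of the same lysates were sequenced in 24 libraries of 8 groups (n = 3). The authors aligned reads with STAR to the mouse genome (mm10, GRCm38.p6 in the submitters' processing notes), counted them on genes with HTSeq 0.10.0 after FastQC 0.10.1, and deposited read counts without normalization in 1 table of 21965 genes. They tested counts with DESeq2, pairing OL and total RNA of a tissue. All 24 columns were used, and 0 columns were unmapped.

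From these counts, genes with a sum of at least 10 were kept (17167), scaled by TMM and fitted in edgeR 4.0.16 (R 4.3.3) by the quasi-likelihood test, with 1 mean for each of 8 groups. Differential OL enrichment was fitted with the tissue pool as a term, as in the study's pairing. Adjusted p (q) is Benjamini-Hochberg over all tested genes. A call needs an absolute log2 fold change over 0.5 and q under 0.05. SE is the absolute log2 fold change over the square root of F. CPM are TMM-scaled, and a count of 3 was 0.084 to 0.127 CPM. The scripts were tested on simulated counts. Replicates are pools of different mice. They differed by more than sampling noise in every pair (median chi-square per gene 2.51 to 21.1).

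Members, gene lists and tests were chosen with earlier results of these data known. The members called in a comparison are named, with values per library for those past 1 on the log2 scale in an OL change or in differential OL enrichment and for 1 member of each other role, and other members by choice after their values were seen. Fits without the 5 OL libraries of high astrocyte level, with that level as a covariate, and with Eno1b counts added to Eno1 were added after seeing the data. Other alternatives were DESeq2 1.42.0 size factors and Wald test, library sizes alone, another TMM reference, a length and GC offset (GENCODE M21), other filters, subsets of groups and leaving out each library. OL and total RNA were paired into pools by consecutive library numbers in the labels. The deviations of OL and total RNA of 1 pool from their group means had r of 0.084, 0.0408 and 0.137 in naive cord, 0.0879, 0.0998 and 0.108 at dpi 2, 0.063, 0.0245 and 0.0258 at dpi 10, and -0.0109, 0.02 and 0.000873 at dpi 42. Between different pools r was -0.105 to 0.0502, -0.0781 to -0.0184, -0.0365 to 0.0117 and -0.028 to 0.0253 at these times. The ranges overlap in naive cord. At dpi 42 the values of 1 pool lie within the other range, so they cannot show whether the pairing there is right.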

Additional observations from a re-analysis of the deposited data

Results flagged for a closer look

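Listed here are the members whose change after injury differed between OL and total RNA by the test of the difference itself (edgeR's quasi-likelihood test with the tissue pool as a term, n = 3 pools a group), as OL minus total on the log2 scale. At dpi 2 the difference was -1.13 for Slc2a1, 1.44 for Slc2a3, -1.89 for Hk2, 1.20 for Pfkfb4, -1.17 for Slc16a1, -3.62 for Slc16a3, 1.12 for Mpc2, 0.92 for Pdhb and -1.08 for Pdk1. At dpi 10 it was -2.497 for Hk2, -0.86 for Slc16a1, -3.37 for Slc16a3, 0.89 for Mpc2, 0.53 for Pdhb and -0.69 for Pdk1. At dpi 42 it was -2.74 for Hk2, -3.91 for Slc16a3, 1.02 for Mpc2, 0.62 for Pdhb and -0.70 for Pdk1. Slc2a3 was not called at dpi 2 without the second naive pool (1.24) or the third dpi 2 pool (1.19). Changes in the cells that make up the total RNA and changes within OLs cannot be told apart by this difference.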

How the results depend on the processing

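The number of members called stayed within 1.5 times for 214 counts over all alternatives and moved further for 44. This number adds higher and lower calls, so a shift from one direction to the other does not show in it. With the length and GC offset, enrichment was called for 19 higher and 1 lower at dpi 2 (6 and 10 in the main fit). It was called for 17 and 2 at dpi 10 (8 and 9) and 18 and 3 at dpi 42 (6 and 11). All genes were then at 7708 and 2818, 7639 and 2766, and 7284 and 2901. Fitting only the groups compared gave 5 calls for the OL change at dpi 2, 1 at dpi 10 and 1 at dpi 42, 6 for total RNA at dpi 42, 3 for differential OL enrichment at dpi 42 and 0 for OL at dpi 42 against dpi 10. With library sizes alone 3 were called in OL at dpi 10, and 7 and 8 in total RNA at dpi 2 and dpi 10. A total RNA reference for TMM gave 9 (1 higher, 8 lower) in OL and 8 in total RNA at dpi 10. The length and GC offset, which shifted the median of all genes by 0.674 to 0.771 in enrichment and by -0.223 to -0.191 in OL changes, gave 19 and 10 in OL at dpi 10 and dpi 42, 19, 25 and 14 in total RNA at dpi 2, 10 and 42, 3 for the difference at dpi 42 and 2 for OL at dpi 42 against dpi 10. DESeq2 size factors and its Wald test each gave 2 in OL at dpi 42, and the Wald test gave 3 for dpi 42 against dpi 10. Without both libraries of dpi 2 pool 2, 9 were called in OL at dpi 2. Without the 5 OL libraries of high astrocyte level the counts were 25 for enrichment at dpi 2, 15 and 11 for the difference at dpi 2 and dpi 10, 13 for OL at dpi 10 against dpi 2 and 2 for dpi 42 against dpi 10. With that level as a covariate they were 12 and 9 in OL at dpi 10 and dpi 42, and 14 for dpi 10 against dpi 2. The cause of these shifts was not tested.

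Leaving out 1 library gave 2 to 10 calls in OL at dpi 10 (2 without the third dpi 10 library, 10 without the first or second naive one), 1 to 9 at dpi 42 (1 without the first dpi 42 library, 9 without the third naive one), 2 to 6 in total RNA at dpi 42 (6 without its second dpi 42 library) and 0 to 5 for dpi 42 against dpi 10 (0 without the first or the third dpi 10 or the second dpi 42 library, 5 without the third dpi 42 one). Leaving out 1 pool gave 3 to 7 for the difference at dpi 10 (3 without the second naive pool) and 3 to 9 at dpi 42 (3 without the first or second naive pool, 9 without the third). Enrichment values changed sign and lost their call in 12 cases. With the length and GC offset Hk1, Mpc2 and Pdhb were at 0.10, 0.10 and 0.043 in naive cord, Hk1, Pfkfb3 and Pygb at 0.18, 0.14 and 0.021 at dpi 2, Pgam1 at 0.14 at dpi 10, and Hk1, Pfkfb2 and Pfkfb3 at 0.41, 0.21 and 0.20 at dpi 42. With library sizes alone Gapdh and Mpc1 were at -0.00563 and -0.0257 at dpi 10.

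Replicate numbers are shared by naive, dpi 2 and dpi 10 mice that are different animals. A replicate block by number gave 13 and 6 members in OL and 14 and 16 in total RNA at dpi 2 and dpi 10. A replicate block by tissue pool gave 19, 18, 18 and 18 for enrichment in naive cord and at dpi 2, 10 and 42, and no replicate block gave 9, 5 and 7 for the difference at dpi 2, 10 and 42. Replicate numbers pair no animals between injured and naive groups at any time. No block by number was fitted for the changes at dpi 42. There the numbers follow accession order and do not all match between OL and total RNA of the same pool.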

Other observations

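Eno1b, a near copy of Eno1, had 1 to 7 counts in naive OL and 7 to 15 in naive total RNA, and 172 to 826 counts in OL and 29 to 609 in total RNA after injury. Its share of the counts on both genes was 0.0199 to 0.173% in the 6 naive libraries and 0.288 to 8.79% in the 18 others, the lowest of these being the second dpi 42 total RNA library. Reads of the copies may be split by counting, so the values of Eno1 are uncertain. With Eno1b added to Eno1 the number of members called in OL was 14 at dpi 2 and 5 at dpi 10, as without it. Among the OL changes Eno1 itself was called only at dpi 10, and these counts do not show how far its own change moved.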
